A study of Rattus norvegicus with 65 samples.

Results

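The genes described here control the passage from G1 into S phase: the D cyclins Ccnd1, Ccnd2 and Ccnd3, the kinases Cdk4 and Cdk6, the inhibitors Cdkn1b, Cdkn1c and Cdkn2c, and the pocket proteins Rb1 and Rbl1. They were chosen by name, with the related inhibitor Cdkn1a left out, and all 10 listed genes were among the 14554 genes measured. RNA was sequenced from primary neonatal rat cardiomyocytes, beating heart muscle cells cultured from newborn rats, kept without serum overnight before exposure. 5FU (5-fluorouracil, 10 mM) was compared with DMSO1, the 1% DMSO of its wells, and Ace (acetaminophen, 2.5 mM) and Dox (doxorubicin, 1.25 μM) were compared with DMSO2, the 0.25% DMSO of theirs, after 6 or 24 hours. There were 7 libraries each of Dox and DMSO2 at both times and of Ace at 24 hours, and 6 of each of the other 5 groups, 65 libraries in 10 groups. Hearts of more than 1 litter were pooled to make the cells, so that p-values here measure the spread between culture wells and not between animals. No genotype was altered in any group.

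D cyclins bind CDK4 or CDK6, and the active kinase phosphorylates the pocket proteins, which otherwise hold E2F transcription factors in check. Cdkn2c (p18) belongs to the INK4 inhibitors, which bind CDK4 and CDK6 directly, while Cdkn1b (p27) and Cdkn1c (p57) belong to the CIP/KIP family and bind complexes of cyclin and CDK. Heart muscle cells divide before birth and largely leave the cell cycle in the first days after it, with Rb1 family proteins and CDK inhibitors among the factors known to keep them out of it. Dox is a topoisomerase II poison and 5FU an antimetabolite of nucleotide synthesis, so both can damage DNA.

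Expression is given as CPM, the usual depth-scaled read count, with TMM factors between libraries. Library totals ran from 14332827 to 25738297 counts, and each of the 10 genes had at least 78 counts in every library, so that low counts limited none of them. A gene was called higher or lower at a Benjamini-Hochberg FDR below 0.01 over all 14554 genes in the quasi-likelihood test of edgeR. Libraries carry no replicate numbers in the table and are numbered here only as names. The 5 libraries least like the rest of their groups, by the median Pearson correlation over all genes in log2 CPM, were library 1 of DMSO1 at 24 hours (0.982), library 1 of 5FU at 6 hours, library 7 of Dox at 24 hours (0.983 each), library 3 of DMSO1 at 6 hours (0.984) and library 7 of Dox at 6 hours. Library 1 of DMSO1 at 24 hours held Cdkn1a at 699 CPM against 95.8 to 114 in the other 5 libraries of its group, a level within the range of 5FU at 6 hours (525 to 715). Without these 5 libraries together, the number of the 10 genes called in each of the 12 comparisons was the same or differed by 1. No pair of libraries of a group agreed within sampling noise (the smallest mean chi-square per gene over 180 pairs was 2.84, where sampling alone gives 1).

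The sequences of 3 promoters are shown because Rb1 and Rbl1, the pocket proteins, moved apart under Dox, and because Cdk4 was lower in 5 of the 6 drug comparisons and called higher in none. RefSeq windows of the assembly GRCr8, from 250 bases before to 50 after the start site, were matched by symbol for 6 of the 10 genes (Ccnd3, Cdk4, Cdkn1b, Cdkn2c, Rb1 and Rbl1). They were searched on both strands for the E2F words TTTCGCGC, TTTGGCGC, TTTCCCGC and TTTGCCGC and for the E-box CACGTG, and no matched words overlapped. An E2F word was found in 2.25% of 27457 rat promoters of the same length and CACGTG in 6.65%. Rbl1 (chr3:166289327-166289626, minus strand) held TTTCGCGC from position -18, Rb1 (chr15:54911808-54912107, minus strand) held TTTCCCGC from position 3, and Cdk4 (chr7:64771203-64771502, plus strand) held CACGTG at positions -203, -183 and -95, counted from the start site. Neither motif was found in the windows of Ccnd3, Cdkn1b and Cdkn2c, genes that also changed under Dox and whose windows are not shown. The 3 windows shown are thus also the only ones of the 6 that held a searched word. Capitals mark the matched letters, which describe the window and were not tested as binding sites.
Rbl1: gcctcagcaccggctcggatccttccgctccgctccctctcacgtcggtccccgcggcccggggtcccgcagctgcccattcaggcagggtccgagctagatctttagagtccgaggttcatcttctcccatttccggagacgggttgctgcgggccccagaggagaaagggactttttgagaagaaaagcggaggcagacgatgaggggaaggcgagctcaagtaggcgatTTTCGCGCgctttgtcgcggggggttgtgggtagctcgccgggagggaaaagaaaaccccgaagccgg
Rb1: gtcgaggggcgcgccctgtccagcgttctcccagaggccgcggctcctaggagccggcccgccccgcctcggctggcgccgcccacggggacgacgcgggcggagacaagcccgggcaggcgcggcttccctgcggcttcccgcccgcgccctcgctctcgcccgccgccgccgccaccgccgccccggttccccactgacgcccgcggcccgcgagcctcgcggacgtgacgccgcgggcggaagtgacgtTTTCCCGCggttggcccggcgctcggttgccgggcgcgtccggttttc
Cdk4: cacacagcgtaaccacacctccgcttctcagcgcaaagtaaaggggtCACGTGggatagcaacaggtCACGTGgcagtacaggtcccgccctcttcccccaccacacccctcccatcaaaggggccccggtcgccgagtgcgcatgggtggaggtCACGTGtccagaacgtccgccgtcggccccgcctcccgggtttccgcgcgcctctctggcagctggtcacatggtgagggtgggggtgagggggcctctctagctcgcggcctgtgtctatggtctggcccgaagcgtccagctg

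Dox moved these genes most, and in both directions. After 24 hours of Dox all 10 differed from DMSO2, with Ccnd1, Ccnd2, Cdk6, Cdkn1c, Cdkn2c and Rb1 higher and Ccnd3, Cdk4, Cdkn1b and Rbl1 lower. This stood against 81.4% of all genes called in that comparison (40.4% higher and 41.0% lower), so that the count itself is near the background. The sizes were larger: 7 of the 10 were called with at least a 2-fold change against 39.1% of all genes, and the median absolute log2 fold change was 1.22 against 0.77 for all genes. Ranges of the Dox and DMSO2 libraries did not overlap for 9 of the 10, Rbl1 being the exception. The share of all genes with ranges apart was not computed, here or in the comparisons below. Counts of ranges apart therefore describe the 10 genes only. Without library 7 of Dox, 9 of the 10 were called, Rbl1 falling out.

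At 6 hours Dox had already raised Ccnd1, Ccnd2, Cdkn1c, Cdkn2c and Rb1 and lowered Ccnd3, Cdkn1b and Rbl1, 8 of 10 genes beside 64.2% of all genes (31.5% higher and 32.7% lower). Only Cdkn1c changed by 2-fold or more at that time, where 15.4% of all genes did. Ranges were apart for 5 of the 10. Scaling by library size alone shifted the median of all genes in this comparison to -0.15, and Cdk4 and Cdk6 were then called lower as well.

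With 5FU 5 of the 10 genes were lower at each time, and the share called was near that of all genes. At 6 hours Ccnd1, Ccnd2, Cdk4, Cdk6 and Cdkn2c were lower and none was higher, 5 of 10 beside 47.9% of all genes (23.4% higher and 24.5% lower). At 24 hours Ccnd1, Ccnd2, Cdk4, Cdk6 and Cdkn2c were lower and Ccnd3 was higher, 6 of 10 beside 55.8% (27.8% lower and 28.0% higher). Ranges were apart for 2 genes at 6 hours and for 5 at 24 hours. None of the 10 reached a 2-fold change with 5FU, against 6.03% of all genes at 6 hours and 10.2% at 24 hours. At 24 hours 6 were also called without library 1 of DMSO1.

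Ace lowered Ccnd1 and Cdk4 and raised Rb1 and Rbl1 at both times, and left Ccnd2, Cdkn1b and Cdkn1c uncalled. At 6 hours Ccnd1, Cdk4, Cdk6 and Cdkn2c were lower and Rb1 and Rbl1 higher, 6 of 10 beside 31.7% of all genes (15.2% lower and 16.5% higher). At 24 hours Ccnd1 and Cdk4 were lower, while Ccnd3, Cdkn2c, Rb1 and Rbl1 were higher, 6 of 10 beside 37.2% (19.1% lower and 18.2% higher). Ranges were apart for 5 genes at 6 hours and 4 at 24 hours. Each change was below 2-fold, while 2.64% of all genes were called with such a change at 6 hours and 6.12% at 24 hours. Ace and Dox share the DMSO2 libraries as controls, so that their comparisons are not independent of each other.

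**Figure D1:**
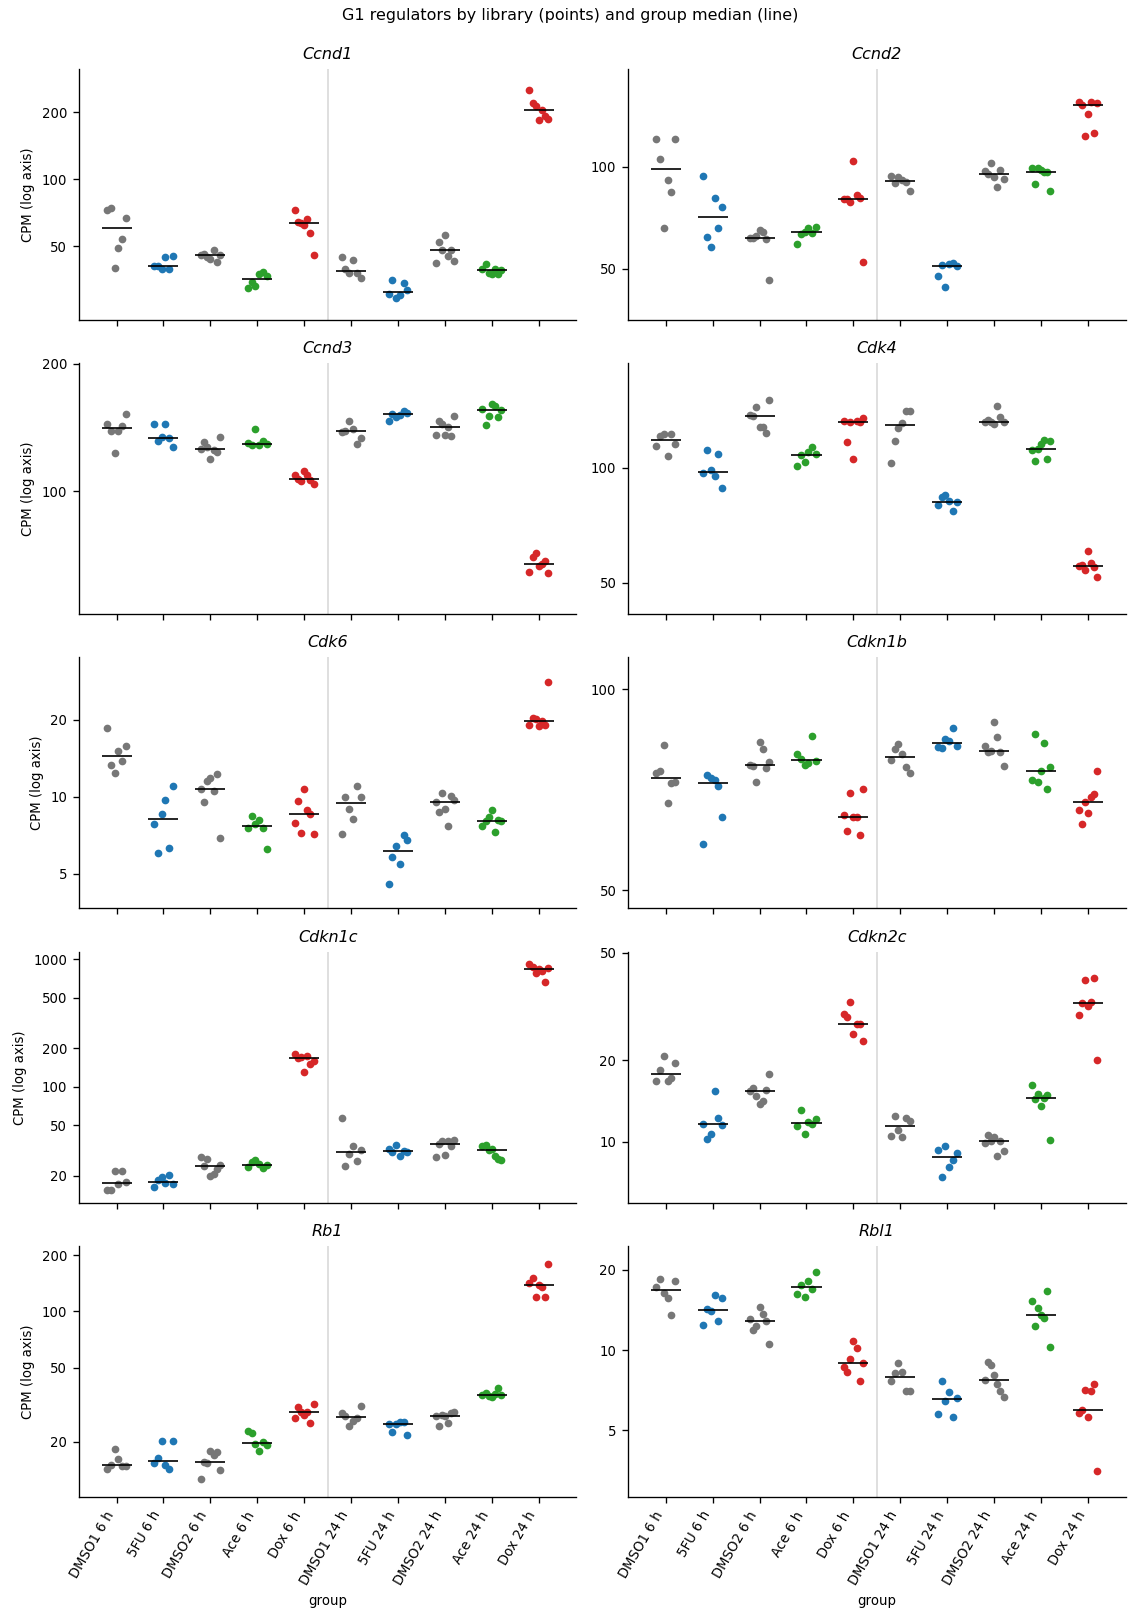
Expression of the 10 genes in all 65 libraries. The x axis gives the 10 groups, the 6-hour groups left of the grey line and the 24-hour groups right of it, and the y axis CPM on a log scale that differs between panels; each point is a library and each line a group median. Cdkn1c under Dox stands far above all other groups, at medians of 169 and 837 CPM, while Cdkn1b stays between medians of 64.4 and 83.0 CPM throughout.

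Among the D cyclins, Ccnd1 had the largest rise under Dox, Ccnd2 the largest fall under 5FU at 24 hours, and Ccnd3 moved opposite to both under Dox. Ccnd1, the D cyclin most directly induced by growth factors, stood at 42.2, 48.1 and 56.0 CPM (lowest, median and highest library) in DMSO2 at 24 hours and at 184, 204 and 251 CPM in Dox. Every Dox library lay above every library of all other groups, and the log2 fold change was 2.12 ± 0.08 (SE), 4.34-fold (FDR = 5.8e-33). At 6 hours the DMSO2 libraries held 42.6, 45.5 and 48.0 CPM and the Dox libraries 45.5, 63.6 and 72.6 CPM, overlapping at a single Dox library (log2 fold change 0.45 ± 0.08, FDR = 3.1e-06). The rise was 1.67 ± 0.12 larger on the log2 scale at 24 than at 6 hours (FDR = 6.3e-20).

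The other drugs lowered Ccnd1. With 5FU it fell from 39.9, 60.5 and 74.3 CPM in DMSO1 to 39.6, 40.8 and 45.3 CPM at 6 hours (-0.51 ± 0.09, FDR = 2.2e-06) and from 36.2, 38.8 and 44.9 to 29.3, 31.2 and 35.2 CPM at 24 hours (-0.33 ± 0.09, FDR = 0.0018). With Ace it fell to 32.6, 35.7 and 38.2 CPM at 6 hours (-0.35 ± 0.09, FDR = 0.00093) and to 37.4, 39.2 and 41.7 CPM at 24 hours (-0.29 ± 0.08, FDR = 0.0029). In the Ace comparisons the ranges were apart, narrowly at 24 hours. The highest Ace and lowest DMSO2 libraries held 38.2 and 42.6 CPM at 6 hours and 41.7 and 42.2 CPM at 24 hours. The call at 24 hours was lost without library 4 of DMSO2 (FDR = 0.014), the highest of its group, and with library-size scaling (FDR = 0.012).

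Ccnd2, a D cyclin abundant in growing cardiomyocytes, responded to 5FU at both times and to Dox, and showed no called change with Ace. It stood at 84.9, 91.0 and 93.9 CPM in DMSO1 at 24 hours and at 44.3, 51.1 and 51.9 CPM in 5FU, with the ranges apart (-0.87 ± 0.10, 1.83-fold lower, FDR = 4.6e-11). At 6 hours both groups were wide, 66.2, 98.7 and 121 CPM in DMSO1 and 58.0, 71.1 and 94.2 CPM in 5FU, and they overlapped (-0.43 ± 0.10, FDR = 0.00021). A fit of these 2 groups alone did not call that difference (FDR = 0.021).

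Under Dox, Ccnd2 rose from 46.5, 61.8 and 65.2 CPM in DMSO2 to 52.4, 80.6 and 104 CPM at 6 hours (0.40 ± 0.09, FDR = 0.00014) and from 87.1, 95.6 and 103 to 124, 152 and 156 CPM at 24 hours (0.60 ± 0.09, FDR = 2.5e-08). The ranges overlapped at 6 and were apart at 24 hours. The log2 fold changes with Ace were 0.08 ± 0.10 at 6 hours and -0.0047 ± 0.0925 at 24 hours (FDR = 0.55 and 0.97).

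Ccnd3, which also accompanies the differentiation of skeletal muscle, was the steadiest of the 3 outside Dox: its group medians in the 8 other groups lay between 126 and 155 CPM, and neighbouring ranges overlapped throughout that order. Dox lowered it to 104, 107 and 112 CPM at 6 hours, from 119, 126 and 134 CPM in DMSO2 (-0.24 ± 0.04, FDR = 3.2e-08). At 24 hours it was at 64.1, 67.3 and 71.3 CPM against 135, 142 and 150.5 CPM (-1.07 ± 0.04, 2.10-fold lower, FDR = 1e-36). The Dox libraries were below all others at both times. The small rises at 24 hours with 5FU (0.13 ± 0.04, FDR = 0.0017) and Ace (0.12 ± 0.04, FDR = 0.0039) came from overlapping ranges, and the call with Ace was lost in 4 of 14 fits that left out 1 library.

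The 2 kinases that partner the D cyclins both fell under 5FU, and parted under Dox at 24 hours. Cdk4 stood at 130.3, 132 and 145 CPM in DMSO2 at 24 hours and at 51.7, 55.1 and 60.5 CPM in Dox (-1.28 ± 0.05, 2.42-fold lower, FDR = 1.3e-31). No Dox library reached any library of another group. At 6 hours of Dox the ranges overlapped, 106, 132 and 135 CPM against 123, 136 and 150.4 CPM, and the difference was not called (-0.10 ± 0.05, FDR = 0.094). It was called lower with library-size scaling alone (-0.25 ± 0.06, FDR = 0.00011). The fall grew by 1.18 ± 0.07 between 6 and 24 hours (FDR = 6.1e-22).

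5FU lowered Cdk4 from 107, 118 and 123 CPM to 88.3, 97.6 and 111 CPM at 6 hours (-0.23 ± 0.06, FDR = 0.0004) and from 103, 129 and 141 to 77, 81.6 and 84.6 CPM at 24 hours (-0.64 ± 0.06, FDR = 3.8e-15), a fall that grew by 0.41 ± 0.08 (FDR = 2.2e-05). Ace lowered it to 101, 108 and 113 CPM at 6 hours (-0.33 ± 0.05, FDR = 1e-06) and to 104, 112 and 118 CPM at 24 hours (-0.26 ± 0.05, FDR = 2.6e-05), each apart from the DMSO2 range. For Ace the difference between the times was 0.07 ± 0.08 (FDR = 0.57).

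Cdk6, the other G1 kinase, rose under Dox where Cdk4 fell. In DMSO2 at 24 hours it was at 7.70, 9.53 and 10.4 CPM and in Dox at 18.9, 19.9 and 28.0 CPM, with every Dox library above every library of the other 9 groups (1.16 ± 0.11, 2.24-fold, FDR = 3.6e-15). Library 7 of Dox held the 28.0 CPM, and without it the log2 fold change was 1.10. At 6 hours the direction was the opposite but not called (-0.29 ± 0.11, FDR = 0.02), and the change between the times was 1.45 ± 0.16 (FDR = 1.6e-12).

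5FU brought Cdk6 down from 12.4, 14.4 and 18.6 CPM to 6.00, 8.20 and 11 CPM at 6 hours, with ranges apart (-0.84 ± 0.12, FDR = 1.4e-08). At 24 hours it was at 7.17, 9.46 and 11 CPM in DMSO1 and at 4.57, 6.12 and 7.05 CPM in 5FU (-0.61 ± 0.13, FDR = 3.4e-05). With Ace it was lower at 6 hours (-0.46 ± 0.12, FDR = 0.001), in overlapping ranges, and not called at 24 hours (-0.21 ± 0.11, FDR = 0.13).

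The inhibitors held the largest change of the 10 genes. Cdkn1c, an imprinted CIP/KIP inhibitor expressed in tissues that leave the cell cycle, rose under Dox and showed no called change with either other drug. It stood at 19.8, 23.7 and 27.9 CPM in DMSO2 at 6 hours and at 131, 169 and 181 CPM in Dox (2.78 ± 0.11, 6.85-fold, FDR = 1.4e-32). At 24 hours DMSO2 held 28.0, 35.4 and 38.4 CPM and Dox 658, 837 and 914 CPM (4.58 ± 0.11, 23.9-fold, FDR = 4.3e-44). The Dox groups were apart from each other and from all 8 other groups, whose medians ranged from 17.6 to 35.4 CPM with overlapping neighbours. The log2 rise grew by 1.80 ± 0.14 from 6 to 24 hours (FDR = 1.6e-17).

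With 5FU and Ace the log2 fold changes of Cdkn1c ran from -0.15 to 0.05, with SEs from 0.105 to 0.12. In DMSO1 at 24 hours the range was 23.9, 30.7 and 56.4 CPM, and the highest library was library 1, the one that also held Cdkn1a at 699 CPM. With that library the log2 fold change for 5FU at 24 hours was -0.11 ± 0.11 (FDR = 0.40) and without it 0.10 (FDR = 0.37).

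Cdkn1b, the CIP/KIP inhibitor of quiescent cells, changed least: its highest group median was 1.29 times the lowest, beside 47.5 times for Cdkn1c. Dox lowered it from 72.6, 77.2 and 83.5 to 60.4, 64.4 and 70.8 CPM at 6 hours (-0.26 ± 0.05, FDR = 1.3e-06) and from 76.6, 80.7 and 89.3 to 62.8, 67.8 and 75.5 CPM at 24 hours (-0.27 ± 0.05, FDR = 2.3e-07). The ranges were apart, narrowly, at both times. No 5FU or Ace comparison called it, except 5FU at 6 hours under library-size scaling (-0.17, FDR = 0.0073).

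Cdkn2c, the INK4 inhibitor p18, was higher with Dox, lower with 5FU, and changed direction with Ace. Under Dox it rose from 13.8, 15.4 and 17.8 to 23.6, 27.3 and 32.9 CPM at 6 hours (0.86 ± 0.09, FDR = 9.7e-13) and from 8.87, 10.1 and 10.6 to 20.1, 32.6 and 40.3 CPM at 24 hours (1.71 ± 0.10, 3.26-fold, FDR = 2.0e-25). The lowest of the 24-hour Dox libraries was library 7, and without it the log2 fold change was 1.82. With 5FU it fell from 16.7, 17.8 and 20.7 to 10.2, 11.6 and 15.4 CPM at 6 hours (-0.61 ± 0.10, FDR = 6.6e-07) and from 10.4, 11.5 and 12.5 to 7.44, 8.80 and 9.68 CPM at 24 hours (-0.40 ± 0.11, FDR = 0.0011), ranges apart at both times.

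With Ace, Cdkn2c was at 10.7, 11.7 and 13.1 CPM at 6 hours, below all DMSO2 libraries (-0.38 ± 0.10, FDR = 0.0014), and at 10.1, 14.6 and 16.3 CPM at 24 hours, above the DMSO2 range in 6 of 7 libraries (0.51 ± 0.10, FDR = 1e-05). The lowest of these was library 7. The difference between the times was 0.89 ± 0.14 (FDR = 1.2e-06), and Cdkn2c was the only 1 of the 10 genes whose Ace effect differed between them, beside 11.6% of all genes (5.58% higher and 6.06% lower). Its level in DMSO2 fell between the times, from a median of 15.4 to 10.1 CPM, while the Ace medians were 11.7 and 14.6 CPM.

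The pocket proteins Rb1 and Rbl1 (p107) rose together with Ace and moved apart with Dox. Rb1, the retinoblastoma protein gene, stood at 12.6, 15.5 and 17.7 CPM in DMSO2 at 6 hours and at 25.1, 28.7 and 31.7 CPM in Dox (0.86 ± 0.08, FDR = 1.7e-15). At 24 hours it was at 24.1, 27.6 and 28.7 CPM in DMSO2 and at 119, 139.5 and 179 CPM in Dox (2.38 ± 0.07, 5.21-fold, FDR = 1e-38). Both pairs of ranges were apart, and the rise grew by 1.52 ± 0.11 (FDR = 4.4e-20). Ace raised Rb1 to 17.8, 19.7 and 22.9 CPM at 6 hours (0.37 ± 0.08, FDR = 0.00017) and to 34.9, 35.8 and 39.0 CPM at 24 hours (0.42 ± 0.07, FDR = 3e-06), apart from DMSO2 each time. With 5FU it was not called (0.12 ± 0.09 and -0.17 ± 0.08). Of the 10 genes Rb1 and Cdkn1c alone were called higher in some and lower in none of the 6 drug comparisons, Rb1 in 4 and Cdkn1c in 2.

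Rbl1, a pocket protein that acts mainly with the repressor E2Fs, was at 10.5, 12.9 and 14.5 CPM in DMSO2 at 6 hours and 15.8, 17.2 and 19.7 CPM in Ace (0.45 ± 0.10, FDR = 0.00013). At 24 hours DMSO2 was at 6.68, 7.76 and 9.03 CPM and Ace at 10.2, 13.6 and 16.7 CPM (0.80 ± 0.10, 1.75-fold, FDR = 5.2e-10). Ranges were apart at both times. Dox lowered it to 7.68, 8.93 and 10.9 CPM at 6 hours (-0.48 ± 0.10, FDR = 2.3e-05) and to 3.51, 5.95 and 7.45 CPM at 24 hours (-0.38 ± 0.11, FDR = 0.00087), with overlapping ranges. The lowest value at 24 hours was that of library 7, and without it the call was lost (-0.25, FDR = 0.017). With 5FU the log2 fold changes were -0.22 ± 0.10 and -0.27 ± 0.11 (FDR = 0.055 and 0.032), not called.

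**Figure D2:**
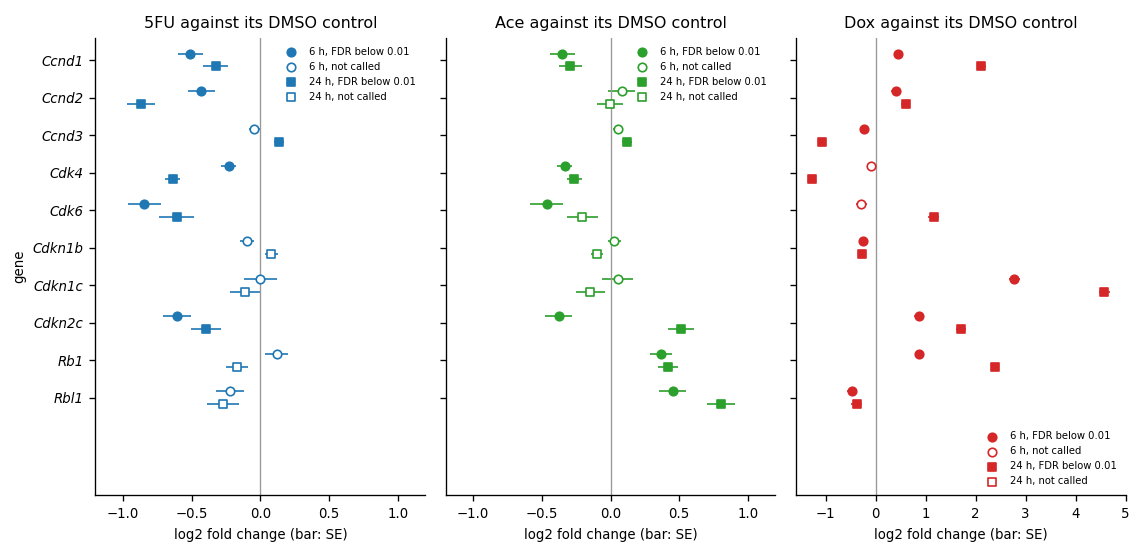
Log2 fold change of each gene against the DMSO control of its drug. Points are the edgeR estimates at 6 hours (circles) and 24 hours (squares), bars are 1 SE, filled points are genes with an FDR below 0.01, and the x axis of the Dox panel is wider. 5FU points lie mostly left of 0, Ace raises Rb1 and Rbl1, and Dox spreads the genes from -1.28 (Cdk4) to 4.58 (Cdkn1c) at 24 hours.

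Ratios of 2 genes within a library do not depend on the scaling between libraries, and were compared with a two-sided exact permutation test over libraries, adjusted over 24 tests (4 ratios in 6 drug comparisons). The absolute value of such a ratio of counts depends on transcript length, so only its change between groups is read. Within each pair Dox at 24 hours changed the balance. The log2 ratio of Cdkn1c to Cdkn1b was -1.27 ± 0.23 (SD, n = 7) in DMSO2 and 3.59 ± 0.19 (SD, n = 7) in Dox, a 28.9-fold shift. That of Cdk6 to Cdk4 went from -3.85 ± 0.19 to -1.43 ± 0.25, a 5.38-fold shift, and that of Ccnd2 to Ccnd1 from 1.0 ± 0.16 to -0.52 ± 0.19. Rbl1 to Rb1 went from -1.79 ± 0.22 to -4.56 ± 0.56. All 4 shifts had ranges apart and an exact p = 0.00058, the smallest that 7 against 7 libraries can give (adjusted p = 0.002).

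At 6 hours of Dox 2 of the 4 ratios had shifted, Cdkn1c to Cdkn1b by 3.04 (8.20-fold) and Rbl1 to Rb1 by -1.35 on the log2 scale (each exact p = 0.00058, adjusted p = 0.002). The kinase and cyclin ratios had not passed the threshold by then (-0.18 and -0.05, adjusted p = 0.59 and 0.74 in the exact permutation test). With 5FU the cyclin ratio fell at 24 hours by 0.55 on the log2 scale, Ccnd2 falling more than Ccnd1 (exact p = 0.0022, the smallest that 6 against 6 can give, adjusted p = 0.0065), and the kinase ratio fell at 6 hours by 0.63 (exact p = 0.017, adjusted p = 0.038), a call lost in 7 of 12 tests with 1 library left out. With Ace the cyclin ratio rose at 6 hours by 0.44 (exact p = 0.00058, adjusted p = 0.002) and at 24 hours by 0.28 (exact p = 0.0041, adjusted p = 0.011), and the ratio of Rbl1 to Rb1 rose at 24 hours by 0.37 (exact p = 0.01, adjusted p = 0.025). The other 13 tests did not pass an adjusted p of 0.05.

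**Figure D3:**
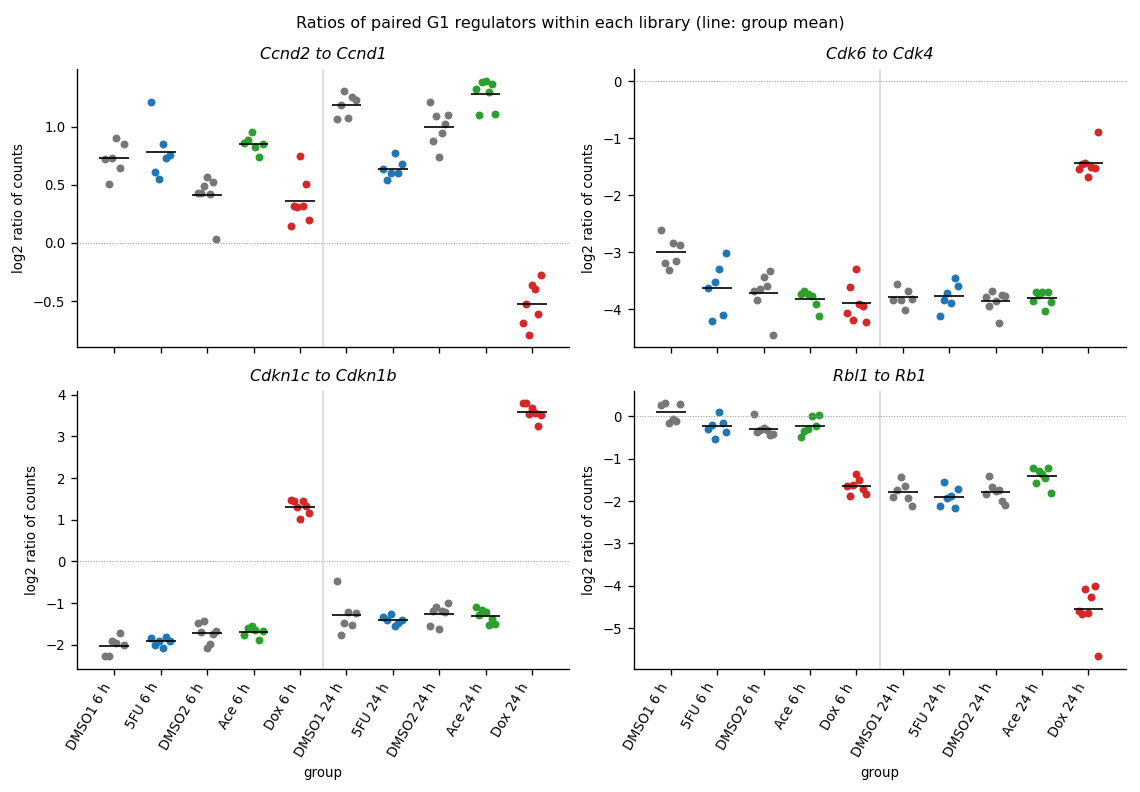
Log2 ratio of the counts of 2 genes within each library, for the pairs of D cyclins, kinases, CIP/KIP inhibitors and pocket proteins. Points are libraries, lines are group means, the dotted line marks equal counts, and the grey line parts 6 from 24 hours. Dox at 24 hours lies apart from its control in all 4 panels, and Dox at 6 hours in the panels of the inhibitors and the pocket proteins.

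Levels also differed between the times in the controls. From 6 to 24 hours, averaged over DMSO1 and DMSO2, Rb1 (0.80 ± 0.06, FDR = 1.3e-19), Cdkn1c (0.71 ± 0.08, FDR = 3.9e-12) and Ccnd2 (0.27 ± 0.07, FDR = 0.00041) rose. Rbl1 (-0.89 ± 0.07, FDR = 5.8e-17), Cdkn2c (-0.65 ± 0.07, FDR = 1.4e-12), Cdk6 (-0.43 ± 0.08, FDR = 4.4e-06) and Ccnd1 (-0.25 ± 0.06, FDR = 0.00034) fell. The directions of Ccnd1 and Ccnd2 were not shared by both controls. Ccnd1 had medians of 60.5 and 38.8 CPM at 6 and 24 hours in DMSO1 and of 45.5 and 48.1 CPM in DMSO2, and Ccnd2 had medians of 98.7 and 91.0 CPM in DMSO1 and of 61.8 and 95.6 CPM in DMSO2. The medians of the other 5 moved the same way in both, though for Cdk6 mostly in DMSO1. Cdk6 had medians of 14.4 and 9.46 CPM at 6 and 24 hours in DMSO1, with ranges apart. In DMSO2 they were 10.7 and 9.53 CPM, with overlapping ranges. The 7 of 10 called over both controls stood beside 64.6% of all genes (32.7% higher and 31.9% lower). Without library 3 of DMSO1 at 6 hours 8 genes were called.

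The 2 control groups differed at 6 hours and not detectably at 24 hours. At 6 hours Ccnd1, Ccnd2, Ccnd3, Cdk6 and Rbl1 were higher and Cdk4 lower in DMSO1 than in DMSO2, 6 of 10 beside 16.5% of all genes (9.87% higher and 6.6% lower). Ccnd2 differed most, 0.70 ± 0.10 on the log2 scale (FDR = 9.6e-08). Ranges were apart, narrowly, for Ccnd2, Cdk4 and Cdk6. The nearest libraries of DMSO1 and DMSO2 held 66.2 and 65.2 CPM of Ccnd2, 122.7 and 123.1 CPM of Cdk4 and 12.4 and 12.2 CPM of Cdk6. A fit of these 2 groups alone called 3 of the 10, and the share of all genes in that fit is not given. At 24 hours none was called by edgeR, beside 0.433% of all genes (0.137% higher and 0.295% lower), and DESeq2 also called 0. At an unadjusted p of 0.05 or less edgeR gave 2 genes, Ccnd1 (-0.26 ± 0.09, FDR = 0.098) and Cdkn2c (0.21 ± 0.10, FDR = 0.31). The 5FU effects at 6 hours are differences from DMSO1 and those of Ace and Dox from DMSO2. Of the genes lower with 5FU at 6 hours, Ccnd1, Ccnd2 and Cdk6 were higher in DMSO1, Cdk4 was lower and Cdkn2c was not called. For Ccnd1, Ccnd2 and Cdk6 the 5FU medians were 40.8, 71.1 and 8.20 CPM, against 45.5, 61.8 and 10.7 CPM in DMSO2.

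In DMSO1 at 6 hours Ccnd1 and Ccnd2 moved with smooth muscle markers (Myh11, Tagln, Acta2 and Cnn1), and in DMSO2 they did not. Their summed level ran from 890 to 4173 CPM over the 6 libraries of DMSO1, where the 3 libraries with the highest sums, from 2881 to 4173 CPM, were also the 3 with the most Ccnd1, from 66.9 to 74.3 CPM, and the most Ccnd2, from 106 to 121 CPM. Library 3, with the lowest sum, had the least of both, 39.9 and 66.2 CPM. Cardiomyocyte markers gave the same 3 libraries the highest sums, from 45674 to 53447 CPM, and library 3 the lowest, 34484 CPM. Fibroblast markers gave those 3 the lowest sums, from 6366 to 8312 CPM. In DMSO2 at 6 hours the smooth muscle sum was 713 to 1107 CPM. Library 7, with the highest, had the least Ccnd2 (46.5 CPM), and library 5, with the lowest, the most Ccnd1 (48.0 CPM). In Ace the sum was 576 to 759, in 5FU 1306 to 2637 and in Dox 1046 to 3195 CPM. Library 7 of Dox, with the lowest sum of its group, also held its least Ccnd1 (45.5 CPM) and Ccnd2 (52.4 CPM). Within 5FU, Ccnd2 ran from 58.0 CPM in the library with the lowest sum to 94.2 CPM in that with the highest. Ccnd1 stayed between 39.6 and 45.3 CPM there. Of the 4 smooth muscle markers 3 were called higher in DMSO1 than in DMSO2 and 4 higher with Dox at 6 hours. These counts stood beside 9.87% and 31.5% of all genes. The part of cell type markers in the Ccnd1 and Ccnd2 differences was not tested.

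**Figure D4:**
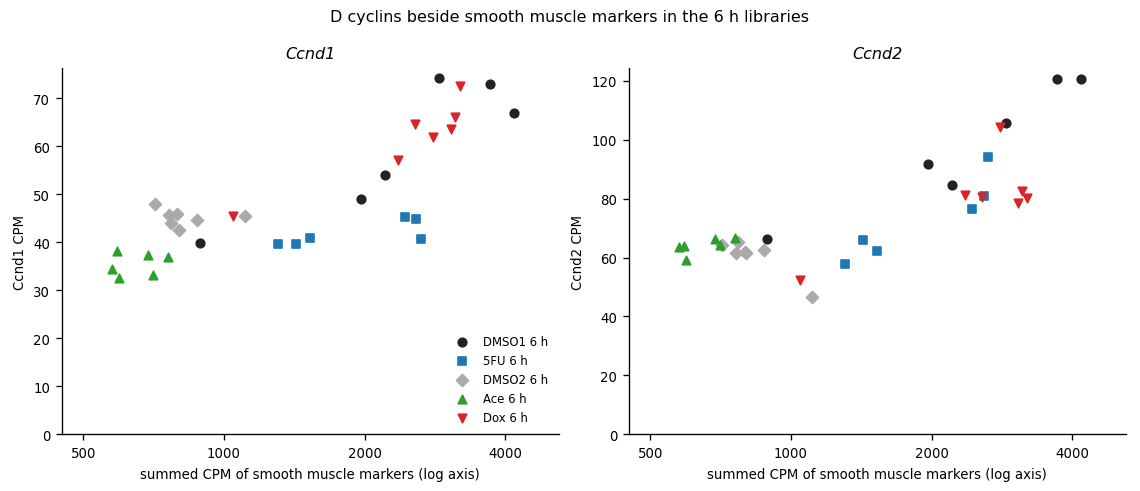
Ccnd1 (left) and Ccnd2 (right) against the summed CPM of 4 smooth muscle markers in the 6-hour libraries. Each point is a library, marked by group, the x axis is logarithmic and the y axis starts at 0. In DMSO1 and in Dox the library with the lowest sum (890 and 1046 CPM) holds the least Ccnd1 (39.9 and 45.5 CPM). The 5FU libraries lie between 39.6 and 45.3 CPM of Ccnd1 at sums from 1306 to 2637 CPM. Their Ccnd2 runs from 58.0 CPM at the lowest sum to 94.2 CPM at the highest.

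Between 6 and 24 hours the effect of Dox changed for 7 of the 10 genes, beside 64.8% of all genes (34.0% higher and 30.8% lower). It rose for Ccnd1, Cdk6, Cdkn1c, Cdkn2c (0.85 ± 0.13, FDR = 5.7e-08) and Rb1 and fell for Ccnd3 (-0.83 ± 0.05, FDR = 8.3e-23) and Cdk4. The effect of 5FU changed for 3 of the 10, beside 39.5% of all genes (20.3% higher and 19.2% lower): it fell for Cdk4 and Ccnd2 (-0.44 ± 0.14, FDR = 0.0081) and rose for Ccnd3 (0.18 ± 0.05, FDR = 0.0045). The Ccnd3 call was lost in 4 of 24 fits that left out 1 library and with the compared groups alone (FDR = 0.044). The Ccnd2 call was lost in 13 of 24 fits that left out 1 library and without the 5 least alike libraries (-0.25, FDR = 0.062), where Rb1 was called instead (-0.34, FDR = 0.0083).

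Of the other genes of the pathway, 51 of 52 listed were in the table, Cdkn2d being the exception. The inhibitor Cdkn1a (p21), a p53 target, was higher in all 6 drug comparisons, by 1.87, 0.70 and 2.46 on the log2 scale at 6 hours and by 2.10, 1.17 and 3.44 at 24 hours for 5FU, Ace and Dox. For 5FU at 24 hours it was 3.04 without library 1 of DMSO1. The INK4 inhibitor Cdkn2b fell with all 3 drugs at 6 hours (-1.6 with 5FU, -0.45 with Ace and -1.16 with Dox). At 24 hours it was lower with 5FU (-0.43) and higher with Dox (0.99). Cdkn2a was lower at 24 hours with 5FU (-0.54) and Dox (-0.40). Of these 3 inhibitors 1 was higher and 1 lower with each drug at 6 hours. At 24 hours 1 was higher and 2 lower with 5FU, beside 28.0% and 27.8% of all genes. With Ace 1 was higher, beside 18.2%, and with Dox 2 were higher and 1 lower, beside 40.4% and 41.0%.

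Downstream of the pocket proteins, Ace at 24 hours, where 18.2% of all genes were higher, raised all 15 listed S phase genes that E2F factors are known to drive, with a median of 0.93, among them Rrm2 (2.04), a subunit of ribonucleotide reductase, Cdc6 (1.38) and Cdt1 (1.33), which license replication origins, and Mki67 (1.05), a proliferation marker. It also raised 6 of 10 E2F and DP factors, E2f8 (2.56), E2f7 (1.88) and E2f1 (1.76) most, and 3 of 4 genes of the cyclin E and CDK2 list, with Ccne2 at 1.51 and Ccne1 at 1.48. In the DMSO controls 14 of the 15 S phase genes fell from 6 to 24 hours, beside 31.9% of all genes, with a median of -1.08. That fall is averaged over DMSO1 and DMSO2, while the Ace effect is a difference from DMSO2 at the same time. The Ace effect was higher at 24 than at 6 hours for 11 of the 15, beside 5.58% of all genes. Its median difference was 0.48. A rise with Ace here means a level above DMSO2, and the Ace libraries of the 2 times were not compared with each other. The median over all genes was -0.00082 for Ace at 24 hours and 0.01 for the controls between the times.

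With Dox at 24 hours 8 S phase genes were higher and 5 lower of 15, beside 40.4% and 41.0% of all genes, so that the count is near the background. Cdt1 (2.06), Rrm2 (1.36), Pcna (1.06) and Tyms (1.06) were among those that rose, while Mcm2 (-2.07), a subunit of the replicative helicase, Tk1 (-1.04), Mcm6 (-0.77), Ccna2 (-0.69) and Mki67 (-0.55) fell. E2f1 rose by 3.59, from 7.86, 9.08 and 10.8 to 90.3, 120.1 and 125 CPM, and 6 of 10 E2F and DP factors were higher and 2 lower. With Dox at 6 hours 8 S phase genes were higher and 3 lower, beside 31.5% and 32.7% of all genes, and E2f1 had risen by 1.58. All 4 cyclin E and CDK2 genes were higher with Dox at both times, beside 31.5% and 40.4% of all genes.

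With 5FU the lists held calls in both directions. Of the 15 S phase genes 4 were higher and 3 lower at both times, a count near the 47.9% and 55.8% of all genes called, and of the E2F and DP factors 4 rose and 2 fell at the early time, against 2 and 3 later. Without library 1 of DMSO1 the S phase counts at 24 hours were 5 higher and 4 lower. Ccne1 was higher at both times (0.72 and 0.32). With Ace at 6 hours 5 S phase genes were higher and 1 lower, and 5 E2F and DP factors and 3 of 4 cyclin E and CDK2 genes were higher. Of all genes 16.5% were higher and 15.2% lower in that comparison.

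Pocket protein partners and genes of the DREAM complex, the repressor that Rbl1 and Rbl2 form with the MuvB core, were 7 in number. At 6 hours 2 were higher with 5FU, 2 with Ace and 6 with Dox, and at 24 hours 5, 2 and 4, where 23.4%, 16.5%, 31.5%, 28.0%, 18.2% and 40.4% of all genes were higher. Lin54, the DNA-binding subunit, was higher in all 6 comparisons, from 0.36 with 5FU at 6 hours to 2.10 with Dox at 24 hours. Lin37 alone was lower, with Dox at both times. Among 8 genes of the turnover of G1 regulators, all 8 were higher with Dox at 6 hours and 7 at 24 hours (31.5% and 40.4% of all genes), among them Fbxw7 (1.08 and 1.43), the F-box protein for cyclin E. With 5FU 5 rose and 1 fell at the early time and 3 rose later (2 without library 1 of DMSO1), and with Ace 2 and 3 were higher and 1 and 2 lower. Skp2, the F-box protein for p27, rose with all 3 drugs at 6 hours (1.31, 0.56 and 0.74 for 5FU, Ace and Dox). Of the 4 genes of the CDK-activating kinase and the chaperone Cdc37, at most 2 were higher and at most 1 lower in any drug comparison, with Cdk7 at 1.40 and Mnat1 at -1.14 with Dox at 24 hours.

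**Figure D5:**
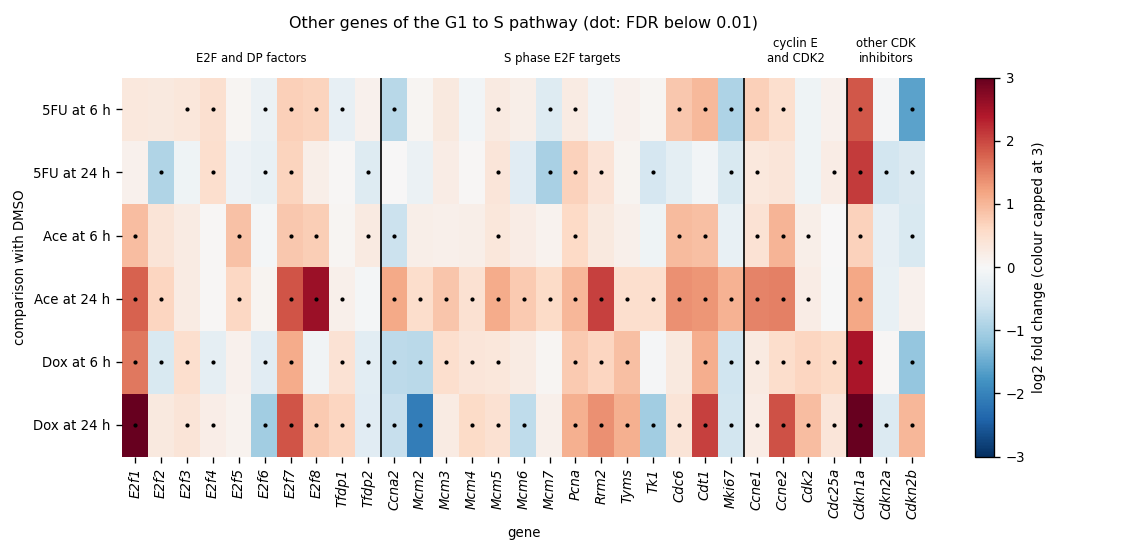
Log2 fold change of 31 other genes of the G1 to S pathway in the 6 drug comparisons. Columns are genes in 4 lists, rows are comparisons with the DMSO control, colour gives the log2 fold change capped at 3, and a dot marks an FDR below 0.01. The row of Ace at 24 hours has all 14 S phase genes shown red and dotted, and the row of Dox at 24 hours holds both red and blue.

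Cell type markers moved beside these results, and in these bulk RNA samples fewer cells of a type and less RNA per cell cannot be told apart. Cardiomyocyte markers, present in all groups, summed to 30651 to 42055 CPM in DMSO2 at 24 hours and to 7643 to 10410 CPM in Dox, all 6 lower (Myh6 by -4.13 and Tnnt2 by -0.21). In 5FU at 24 hours they summed to 18918 to 20735 CPM against 27349 to 35085 CPM in DMSO1, 4 of 6 lower and 1 higher, and in Ace 1 of 6 was lower. Fibroblast markers went from 14863 to 18675 CPM in DMSO2 to 1888 to 4013 CPM in Dox, 7167 to 9190 CPM in Ace and, from 9832 to 19699 CPM in DMSO1, to 5088 to 5757 CPM in 5FU, all 6 lower in each. Endothelial markers summed to 178 to 229 CPM in DMSO2 at 24 hours, 13.4 to 32.3 CPM in Dox and 92.9 to 174 CPM in Ace, 4 and 3 of the 4 lower, and 3 of 4 were lower with 5FU. Macrophage markers were lower for 5 of 5 with Dox, 4 with Ace and 2 with 5FU at 24 hours, and smooth muscle markers were higher for 3 of 4 with Dox. Beside these counts, 41.0% of all genes were lower and 40.4% higher with Dox at 24 hours. With 5FU 27.8% were lower and 28.0% higher, and with Ace 19.1% were lower. Library 7 of Dox, with the lowest Cdkn2c and Rbl1 and the highest Cdk6 and Rb1 of its group, held smooth muscle markers at 307 CPM against 1156 to 1579 CPM in the other 6. No marker was at 0 across a group, and the part of cell composition in the results of the 10 genes was not tested.

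Across the 65 libraries and 12451 other named genes with a mean of at least 1 CPM, the genes most like each of the 10 were found by Pearson's r of log2 CPM. The libraries share groups, so these values describe mostly differences between groups. For Ccnd1 they were Smad7 (0.957) and Rnd3 (0.955), for Ccnd2 Ubash3b (0.909) and Ppp1r12a (0.890), and for Ccnd3 Cox19 (0.966) and Tmem42 (0.963). Cdk4 was most like Glod5 (0.949) and Nop53 (0.939) and Cdk6 like Chst3 (0.911) and Rapgef4 (0.873). Among the inhibitors, Cdkn1c followed Narf and Tcp11l2 (each 0.978), Cdkn2c followed Ahr (0.928) and Dffa (0.917), and Cdkn1b had the weakest partners, Adra1d (0.803) and Mcf2l (0.800). Rb1 was most like Ddx5 (0.969) and Acad11 (0.967), and Rbl1 like Dnmt1 (0.938), the maintenance DNA methyltransferase, and Rad54l (0.936), a homologous recombination factor. Among the 10 genes themselves the most opposed pairs were Ccnd3 with Cdkn1c (-0.91) and with Ccnd1 (-0.90).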

How the data were processed

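RNA of primary neonatal rat cardiomyocytes was sequenced as poly(A) libraries with paired reads. The authors quantified transcripts with kallisto 0.46.0 against Ensembl v96, summed them to genes with tximport and removed genes of low count; they deposited estimated counts, given as whole numbers, for 14554 Entrez genes in 65 libraries. Symbols came from the GRCr8 gene table (14009 identifiers matched). Groups came from the labels, and the columns name the group but no replicate.

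Counts were scaled with TMM factors and tested in edgeR 4.0.16 (R 4.3.3, limma 3.58.1) by the quasi-likelihood test, with all 65 libraries and 10 groups in 1 model and Benjamini-Hochberg FDR below 0.01 over all genes. The pipeline was tested on simulated data. Estimated counts share reads between transcripts by likelihood, so that related genes are separated by a model. Library totals of 14332827 to 25738297 counts set the precision. Ratios were log2 of counts with 0.5 added, compared by exact permutation over libraries. The 10 genes and the pathway lists were chosen with earlier results of these data known; any gene of a list could be named beside its count, together with the 2 genes most correlated with each of the 10 genes. Alternatives were library size or DESeq2 1.42.0 size factors for scaling, the DESeq2 Wald test, other filters, an FDR of 0.1, the compared groups alone and each library left out; leaving out the 5 least alike libraries together was added after the data were seen, as were the alternatives for list counts. For 1 gene of the S phase list, counted with its list, values are not reported here.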

Additional observations from a re-analysis of the deposited data

Results flagged for a closer look

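In 6 of 100 combinations of gene and group, 1 library lay far from the others by Dixon's 95% critical value, which chance gives in about 5.0% of groups. Ccnd2 in DMSO2 at 6 hours was 46.5 CPM in library 7, below the next lowest at 61.4 CPM. Ccnd3 in Ace at 6 hours reached 140.4 CPM in library 3, with the next at 132 CPM. Cdk4 in DMSO2 at 24 hours reached 145 CPM in library 5, with the next at 136 CPM. Cdk6 in Dox at 24 hours reached 28.0 CPM in library 7, with the next at 20.3 CPM. Cdkn1c in DMSO1 at 24 hours reached 56.4 CPM in library 1, with the next at 34.6 CPM. Rb1 in Ace at 24 hours reached 39.0 CPM in library 6, with the next at 36.6 CPM.

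The effect of a drug differed between 24 and 6 hours in 11 of 30 tests (edgeR, FDR below 0.01). These were 3 of 10 genes with 5FU, 1 with Ace and 7 with Dox, beside 39.5%, 11.6% and 64.8% of all genes. The counts are thus near the background. With 5FU the log2 difference was 0.18 for Ccnd3, -0.44 for Ccnd2 and -0.41 for Cdk4. With Ace it was 0.89 for Cdkn2c, whose effect was below 0 at 6 and above 0 at 24 hours. With Dox it was 1.67 for Ccnd1, -0.83 for Ccnd3, -1.18 for Cdk4, 1.45 for Cdk6, 1.80 for Cdkn1c, 0.85 for Cdkn2c and 1.52 for Rb1.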

How the results depend on the processing

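No paired analysis was possible because the columns carry no replicate numbers. With the compared groups alone, 3 of the 10 genes were called between DMSO1 and DMSO2 at 6 hours, where Ccnd1, Ccnd3 and Cdk4 fell out, and 1 in the 5FU difference between times. An FDR of 0.1 gave 5 in that difference, 2 in that of Ace and 1 between DMSO1 and DMSO2 at 24 hours. Leaving out 1 library at a time gave 1 to 3 for the 5FU difference, 4 to 6 for Ace and 9 to 10 for Dox at 24 hours. Library-size scaling moved the median of all genes by -0.15 for Dox at 6 hours and to 0.27 for its difference between times, and called 7 genes for 5FU at 6 hours and 10 for Dox at 6 hours. The share of all genes called under such other settings is not given, here or above. Counts under them therefore show only how the calls of the 10 genes moved, and cannot be set against a background. With 1 library left out, these ratios changed sign or side of the threshold, between the values given: Ccnd2 to Ccnd1 with 5FU at 6 hours (-0.029 to 0.10), Cdk6 to Cdk4 with 5FU at 6 hours (-0.76 to -0.52), with 5FU at 24 hours (-0.047 to 0.089) and with Ace at 24 hours (-0.0033 to 0.098), Cdkn1c to Cdkn1b with Ace at 6 hours (-0.026 to 0.083), with 5FU at 24 hours (-0.23 to 0.034) and with Ace at 24 hours (-0.10 to 0.00075), and Rbl1 to Rb1 with 5FU at 6 hours (-0.40 to -0.27). Fold changes that changed sign were all uncalled. For Cdkn1c they were, with 5FU at 6 hours, 0.0099 with DESeq2 size factors, 0.0066 with filterByExpr, 0.0097 with the DESeq2 Wald test and 0.074 without the 5 least alike libraries, and without those 5 also 0.095 with 5FU at 24 hours and 0.022 for the 5FU difference. For Ccnd2 with Ace at 24 hours they were 0.054 by library size, 0.0022 with filterByExpr, 0.00032 with the compared groups alone and 0.0060 without the 5. By library size alone they were -0.0041 for Cdkn1b with Ace at 6 hours, 0.0073, 0.030 and 0.020 for Ccnd3, Cdk6 and Cdkn1c between the controls at 24 hours (Cdk6 0.055 without the 5), 0.014 for Rbl1 in the 5FU difference, 0.0048 for Ccnd2 in the Ace difference and 0.19 for Cdkn1b in the Dox difference (0.0068 with filterByExpr). With 1 library left out, signs changed for Cdkn1c with 5FU at 6 hours (-0.050 to 0.055), at 24 hours (-0.18 to 0.10) and in their difference (-0.19 to 0.10), Rbl1 in that difference (-0.095 to 0.0017), Ccnd2 with Ace at 24 hours (-0.026 to 0.021), Cdkn1b in the Dox difference (-0.034 to 0.024), Rb1 between the controls at 6 hours (-0.065 to 0.019), and at 24 hours Cdk6 (-0.066 to 0.046), Cdkn1c (-0.23 to 0.075), Rb1 (-0.021 to 0.040) and Rbl1 (-0.033 to 0.046). Of the other fold changes, 793 kept direction and side of the threshold, 15 passed it and 13 lost it across the alternatives that kept every library or dropped the 5 together. With 1 library left out, 2013 kept both, 12 passed the threshold and 27 lost it. The causes were not tested.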
